A study of Mus musculus with 2 samples.

Results

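Splenic type 1 conventional dendritic cells (cDC1s) in which no transcript of the chemokine receptor gene Ccr2 was counted were described here from single-cell RNA sequencing of CD11c+ spleen cells. The cells were selected on counts of 7 genes in each cell, in unique molecular identifiers (UMIs, the tags that mark single captured transcripts). A member had 2 or more Clec9a UMIs, 1 or more Xcr1 UMIs and 0 Ccr2 UMIs, fewer than 2 Ccr7 and 3 C1qb UMIs, and fewer than 6 UMIs of the proliferation genes Top2a and Mki67 together. Of 3308 cells of replicate 1, 524 met the rule (15.8%, 95% exact binomial interval 14.6 to 17.1%), and of 3085 cells of replicate 2, 449 did (14.6%, 13.3 to 15.8%), which gave 973 of 6393 cells. The share was 15.2% ± 0.909 (SD, n = 2 samples). A count of 0 Ccr2 UMIs means that none was captured at this depth, and whether a cell was resident in the spleen was not measured.

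cDC1s are the dendritic cells that take up dead cells through receptors such as CLEC9A (DNGR-1), carry their antigens onto MHC class I and prime CD8+ T cells. Their chemokine receptor XCR1 draws them to its ligand XCL1, which CD8+ T cells and NK cells secrete. Their development and identity depend on the transcription factors IRF8, BATF3 and ID2. The other conventional dendritic cells of the spleen, cDC2s, rely on IRF4 and Notch signals and present antigen mainly to CD4+ T cells. CCR2 guides monocytes and some dendritic cell precursors out of the bone marrow, and cDC1s with and without its transcript were therefore compared.

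The 2 samples were spleen cells of wild-type mice enriched with CD11c magnetic beads, marked with sample tags and captured together on a BD Rhapsody cartridge whose tags also mark other mice not analysed here. Strain, age, sex and the number of mice per sample were not given in the labels, so a p-value here measures only the spread between these 2 samples. Both tables listed the same 27032 genes, the tables held 46953398 and 43137746 UMIs in replicates 1 and 2, and no cell barcode was shared between them. In the median member 19215 and 21159 UMIs and 4132 and 4250 genes were detected (replicates 1 and 2), with 5.73% and 5.47% mitochondrial UMIs. Scrublet marked 60 of all 6393 cells as doublets (0.939%), of which 2 and 3 were members.

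Most of the reduction from all cells to members came at the cDC1 genes. In replicates 1 and 2, 1183 and 1049 cells had 2 or more Clec9a UMIs, 823 and 731 of them also had an Xcr1 UMI, and 649 and 569 remained after the limits on Ccr7, C1qb and the proliferation genes. The absence of Ccr2 then removed 125 and 120 cells, which served as a comparison group of cDC1s with Ccr2. Few members lay at the Clec9a limit, since 13 and 10 had exactly 2 Clec9a UMIs, and 16 and 12 cells with exactly 1 were just outside. Irf8 stood at 785 and 433 CPM (UMIs of the gene scaled to a total of 1000000) in the former and at 367 and 129 CPM in the latter. At the Xcr1 limit, 25 and 16 members had exactly 1 UMI, with Irf8 at 608 and 352 CPM, and 129 and 95 cells with none were outside, with Irf8 at 178 and 146 CPM. Among cDC1s with Ccr2, 24 and 23 cells had exactly 1 Ccr2 UMI and held 2084 and 2143 CPM of Irf8, close to the 1846 and 2045 CPM of the 101 and 97 cells with 2 or more. At the proliferation limit, the 10 and 14 members with 5 Top2a and Mki67 UMIs held 1667 and 1675 CPM of Irf8, and the 68 and 70 cells outside it held 1824 and 1904 CPM. These values describe the selection and were given no test.

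The genes of the rule stood where the selection put them and were left out of every test. Clec9a was at 1740 and 1562 CPM in members and at 1309 and 1239 CPM in cDC1s with Ccr2, and Xcr1 was at 1057 and 1114 CPM against 905 and 1050 CPM. Top2a was at 10.6 and 10.2 CPM in members, C1qb at 3.78 and 4.65 CPM and Ccr7 at 0.896 and 1.45 CPM. cDC2s were chosen by 2 or more UMIs of Clec4a4 (DCIR2), or of Clec10a and Cd209a together, with no Clec9a or Xcr1 UMI, and numbered 745 and 625 cells. The cDC2 gate set no limit on proliferation, macrophage or migration genes, so Top2a was at 264 and 421 CPM, C1qb at 68.9 and 79.0 CPM and Ccr7 at 34.6 and 51.4 CPM in those cells.

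UMIs were summed per sample within each cell group, and the sums of the 2 samples were compared with edgeR's quasi-likelihood test with Benjamini-Hochberg adjustment over all genes tested. A gene was called at an adjusted p under 0.05. Levels are given as CPM, replicate 1 first, and log2 fold changes, scaled by the trimmed mean of M values (TMM), stand in parentheses with their standard error (SE). Because counts were not scaled by transcript length, levels are compared between cell groups and not between genes.

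The label was checked with 3 cDC1 genes that the rule did not use, and all were high in members. Irf8, the factor that specifies the lineage, was at 1887 and 1959 CPM in members and at 26.97 and 28.6 CPM in cDC2s, a log2 fold change of 6.34 ± 0.065 (edgeR quasi-likelihood test, adjusted p = 1.99e-11). Naaa, an acid amidase of lysosomes, was at 1266 and 1358 CPM against 38.6 and 34.4 CPM (5.39 ± 0.077), and Tlr3, the endosomal receptor for double-stranded RNA, at 299.5 and 291 CPM against 8.55 and 8.54 CPM (5.34 ± 0.090). No sample of 1 group came near the other group. Irf8 was counted in 98.3% and 98.9% of members but in 16.2% and 18.7% of cDC2s, Naaa in 96.8% and 98.0% against 29.7% and 26.9%, and Tlr3 in 83.2% and 82.2% against 6.31% and 7.52%. cDC2s were shallower, with medians of 11449 and 11094 UMIs per cell. In GRCm38 (GENCODE M21 models) Irf8 lies on the plus strand of chr8:120736358-120756694, Naaa on the minus strand of chr5:92257659-92278170 and Tlr3 on the minus strand of chr8:45395665-45411080, and Ccr2 on the plus strand of chr9:124101950-124113557. Irf8 and Tlr3 each overlap 1 other gene model, so some of their reads may not be separable. The cDC2 receptor Sirpa ran the other way, at 9.16 and 12.5 CPM in members and 321 and 303 CPM in cDC2s (-4.62 ± 0.13).

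**Figure D1:**
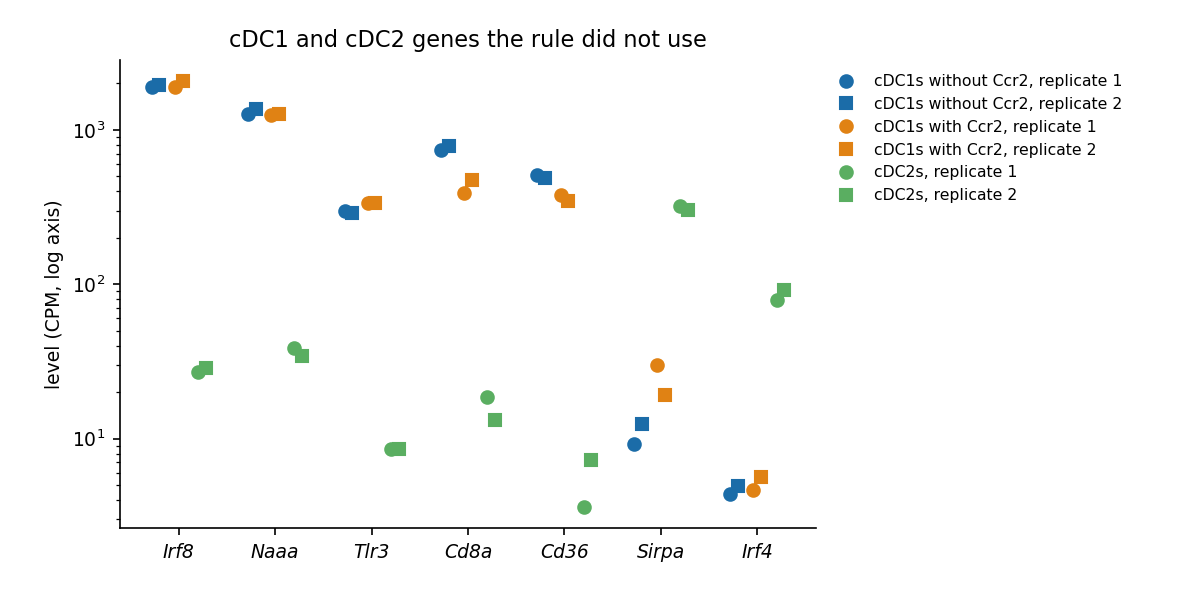
Levels in CPM (log axis) of 7 genes that the selection did not use, one point per sample, in cDC1s without Ccr2, cDC1s with Ccr2 and cDC2s. Irf8, Naaa, Tlr3, Cd8a and Cd36 were high in both cDC1 groups, Sirpa and Irf4 in cDC2s, and the replicates of a group lay close together.

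Against cDC2s, 12331 genes were tested, and 3125 were called higher in members (25.3% of genes) and 3165 lower (25.7%). Of these, 1145 higher and 1716 lower genes differed by more than 2-fold. The median log2 fold change of all genes was -0.00. With libraries scaled by total UMIs alone, an alternative chosen after seeing the data, the median of all genes moved to -0.23 and the calls to 2039 higher and 4594 lower, so the higher share of calls fell from 49.7% to 30.7%. Changes below are therefore relative to the bulk of genes. The count of a list is to be read beside the 25.3% higher and 25.7% lower of all genes. The gene lists below were drawn up with earlier results of these data known, so a list's count describes these cells and is not independent evidence.

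All 30 tested genes of the cDC1 surface and signature list were called higher in members, with a median log2 fold change of 5.23. Gpr141b, an orphan receptor gene, was at 806 and 787 CPM in members and 3.51 and 2.76 CPM in cDC2s (8.20 ± 0.10, adjusted p = 4.90e-11 by edgeR with Benjamini-Hochberg adjustment). The Wnt receptor gene Fzd1 was at 57.6 and 54.5 CPM against 0.110 and 0.131 CPM, but the cDC2 sums held only 2 Fzd1 UMIs, so the ratio of 469 had a counting interval of 129 to 3877. Cd36, a scavenger receptor for lipids and dying cells, was at 511 and 486 CPM against 3.62 and 7.23 CPM (6.78 ± 0.18). Among genes outside the list, Dkk3, a secreted protein of the Dickkopf family, (6.99 ± 0.15) and the protease inhibitor Serpinb8 (6.36 ± 0.23) were among the 10 largest. Cd8a, whose product is the classical surface marker of this subset in the spleen, was at 741 and 791 CPM against 18.5 and 13.3 CPM (5.81 ± 0.12). Cxcl9, a chemokine that attracts CXCR3+ T cells, was at 743 and 982 CPM against 16.3 and 16.9 CPM (5.93 ± 0.15). The groups did not overlap at any of these genes. Here and below, genes were named for their calls or values, so a lack of overlap adds little to the calls. At the foot of the list stood Rab43 (1.14 ± 0.15) and Wdfy4 (1.40 ± 0.045), both needed for cross-presentation by cDC1s, which cDC2s also held, at 11.3 and 12.9 CPM and 741 and 705 CPM.

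The upstream sequences of these genes were read from RefSeq (GRCm38.p6, the 250 bases before each annotated start), since the fixed letters of 3 factor motifs could be searched there. GAAANNGAA is the core of the interferon-stimulated response element bound by IRF factors, GGAANNGAA that of the composite ETS-IRF element bound by IRF8 or IRF4 with PU.1, and TGANTCA that of AP-1 sites bound by BATF factors with JUN. Both strands were searched. Of all 32851 mouse promoters, 7.13%, 6.99% and 6.75% held these letters. Of the 30 signature genes, 24 were matched, with 30 promoters, of which 7 held GAAANNGAA (23.3%), 3 GGAANNGAA (10%) and 1 TGANTCA (3.33%). The promoters of the 5 marker genes Clec9a, Xcr1, Irf8, Naaa and Tlr3 held none of the 3 motifs in this window. The 5 promoters printed were chosen because their genes had large differences or differed by Ccr2 below, and all 5 held a motif. The promoters of Fzd1 and Cd36, also with large differences, held none. For the 10 genes with the largest fold higher in members, 8 were matched, with 10 promoters. Of these promoters, 2 held GAAANNGAA, 1 GGAANNGAA and 1 TGANTCA. The printed promoters are written 5′ to 3′ on the strand of the gene with the matched letters in capitals. Gpr141b (chr13:19732952-19733201, minus strand), Cxcl9 (chr5:92328080-92328329, minus) and Apol7c (chr15:77533316-77533565, minus, with 2 overlapping matches on the opposite strand) held GAAANNGAA, Cd8a (chr6:71373177-71373426, plus) held 2 matches to GGAANNGAA on the opposite strand, and Cd207 (chr6:83677858-83678107, minus) held TGANTCA directly before its start. A match says only that these letters occur there.
Gpr141b: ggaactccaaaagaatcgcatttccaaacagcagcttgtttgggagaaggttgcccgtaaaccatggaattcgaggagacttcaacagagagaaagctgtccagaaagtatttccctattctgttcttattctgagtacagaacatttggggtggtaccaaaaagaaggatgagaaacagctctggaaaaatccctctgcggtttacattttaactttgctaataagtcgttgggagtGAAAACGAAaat
Cxcl9: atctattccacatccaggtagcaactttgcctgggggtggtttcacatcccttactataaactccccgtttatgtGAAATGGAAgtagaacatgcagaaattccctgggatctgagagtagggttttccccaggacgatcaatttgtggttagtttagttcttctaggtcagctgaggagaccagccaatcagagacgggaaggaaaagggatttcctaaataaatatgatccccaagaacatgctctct
Apol7c: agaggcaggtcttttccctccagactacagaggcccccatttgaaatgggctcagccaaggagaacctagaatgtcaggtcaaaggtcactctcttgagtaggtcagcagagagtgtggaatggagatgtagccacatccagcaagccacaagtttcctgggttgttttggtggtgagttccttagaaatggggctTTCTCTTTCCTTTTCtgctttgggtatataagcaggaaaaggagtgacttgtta
Cd8a: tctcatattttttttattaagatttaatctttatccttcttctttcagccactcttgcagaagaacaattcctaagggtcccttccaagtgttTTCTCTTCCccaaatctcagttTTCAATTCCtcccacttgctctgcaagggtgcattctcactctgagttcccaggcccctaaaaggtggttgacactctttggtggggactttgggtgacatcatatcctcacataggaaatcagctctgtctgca
Cd207: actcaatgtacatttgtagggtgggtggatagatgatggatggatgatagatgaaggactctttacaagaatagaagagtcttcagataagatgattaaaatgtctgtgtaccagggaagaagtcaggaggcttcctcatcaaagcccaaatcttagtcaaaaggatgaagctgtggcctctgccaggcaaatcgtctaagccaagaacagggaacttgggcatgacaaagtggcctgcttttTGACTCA

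Genes of the cDC1 lineage and transcription list were split. Of 15 tested, 6 were called higher and 4 lower, beside 25.3% and 25.7% of all genes, with a median log2 fold change of 0.16. Id2, which represses E proteins and is required for cDC1s, was at 1154 and 1109 CPM against 349.5 and 349 CPM (1.92 ± 0.049). Mycl, which supports cDC1 function, was higher (2.39 ± 0.086). Batf3 differed less, at 115 and 109.99 CPM against 79.6 and 73.2 CPM (0.79 ± 0.078). Relb, an NF-kappaB subunit that also stands in the list of mature dendritic cell markers, was at 54.2 and 60.3 CPM against 328 and 320.4 CPM (-2.27 ± 0.080). Runx3 was at 136 and 159 CPM against 409 and 413 CPM (-1.25 ± 0.082). Of 14 tested cDC2 lineage factors, 10 were lower and 1 higher, with a median of -1.52. Irf4, the cDC2 counterpart of Irf8, was at 4.38 and 4.96 CPM against 79.3 and 92.4 CPM (-3.97 ± 0.15), and Dtx1, a Notch target, at 3.78 and 3.82 CPM against 252 and 249 CPM (-5.81 ± 0.10). Zeb2, a repressor that opposes Id2 and the cDC1 fate, was at 16.5 and 14.7 CPM against 241 and 248 CPM (-3.74 ± 0.092). The exception was Rbpj, the DNA-binding partner of Notch, which was higher in members (1.03 ± 0.064).

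Of 24 tested cDC2 surface and signature genes, 20 were lower and 4 higher, with a median log2 fold change of -3.09. The C-type lectin genes Clec4a2 (-4.99 ± 0.13) and Clec4a1 (-4.94 ± 0.14) and the integrin gene Itgam, which encodes CD11b, (-4.70 ± 0.23) were the lowest. S100a4, a calcium-binding protein gene outside that list, was at 12.3 and 10.6 CPM against 472 and 496 CPM (-5.16 ± 0.092). The 4 higher genes were Clec12a (1.92 ± 0.12), an inhibitory lectin that recognises uric acid crystals, Lyz2 (1.28 ± 0.25), Fcgr2b (1.20 ± 0.088) and Csf2rb2 (0.53 ± 0.10). Lyz2, the lysozyme gene, differed between replicates of the members, at 425 and 219 CPM, with 134 and 178 CPM in cDC2s, and against cDC2s chosen by Clec10a and Cd209a alone neither Lyz2 (0.50) nor Csf2rb2 (0.26) was called. The plasma cell gene Jchain had the most negative fitted value, but its 172 CPM in replicate 1 of the cDC2s stood against 2.89 CPM in replicate 2.

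**Figure D2:**
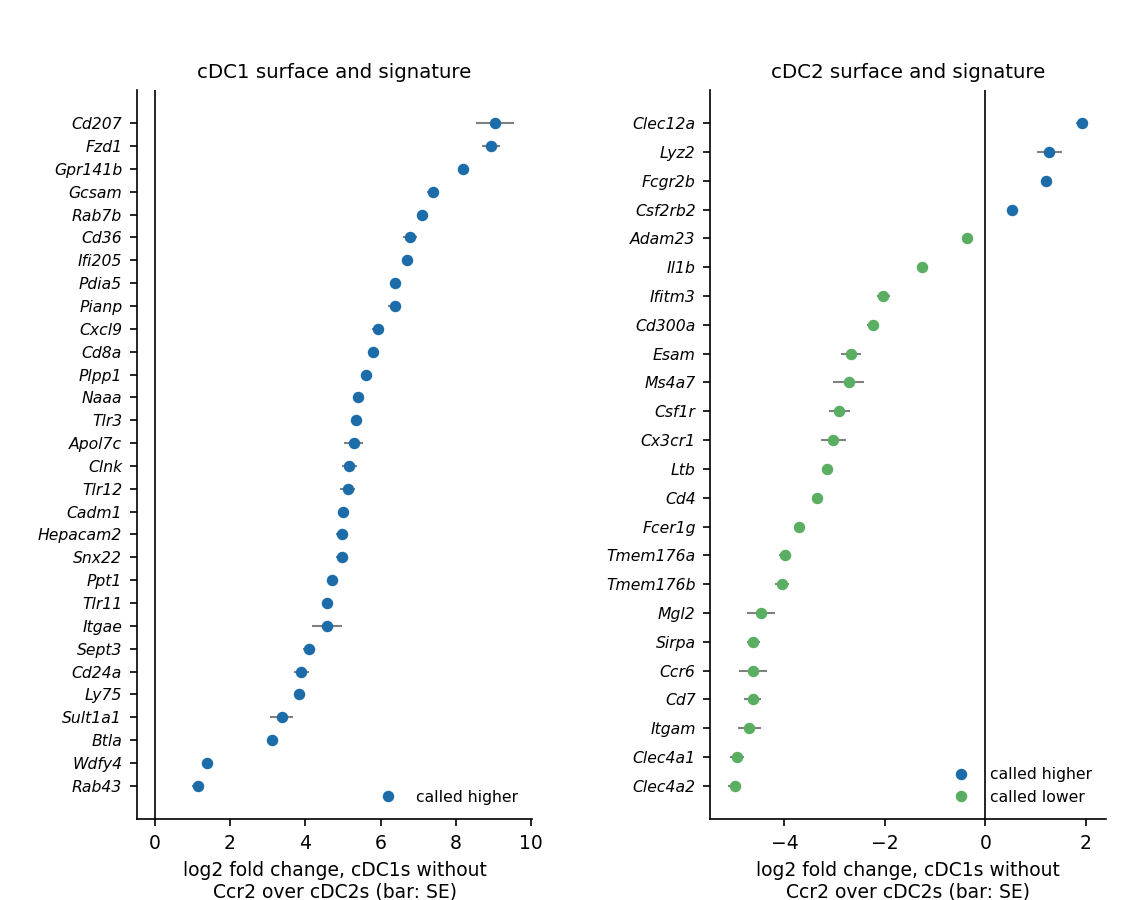
log2 fold change with SE of each tested gene of the cDC1 and the cDC2 surface and signature lists, members over cDC2s. All 30 cDC1 genes lay right of 0, and 20 of 24 cDC2 genes lay left of it.

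Uptake and antigen processing genes did not move as a block. Of 15 tested dead cell uptake genes, 3 were higher and 9 lower, with a median of -1.74. Besides Cd36, the higher ones were Havcr2 (1.30 ± 0.056), which encodes the phosphatidylserine receptor TIM-3, and Scarb1 (1.19 ± 0.085), a scavenger receptor. Axl (-3.51 ± 0.18), Lrp1 (-3.30 ± 0.18) and C1qa (-3.87 ± 0.22), also abundant in macrophages, were among the lower ones. With cDC2s held to the same limits on Ccr7, C1qb and proliferation genes, 4 uptake genes were higher and 5 lower, and neither C1qa (log2 fold change 0.20) nor Axl (-0.69, edgeR adjusted p = 0.144) was called any longer. Of 23 cross-presentation and vesicle traffic genes, 11 were higher and 8 lower, with a median of 0.07. Rab7b, a GTPase of late endosomes, was at 523 and 542 CPM against 4.17 and 4.86 CPM (7.11 ± 0.10), and Rab11a (1.54 ± 0.077) was also higher. Cybb, the catalytic subunit of the phagosomal NADPH oxidase, was at 13.8 and 16.3 CPM against 502 and 448 CPM (-4.75 ± 0.10).

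Class I processing genes were mostly higher in members. Of 19 tested, 14 were higher and 1 lower, with a median of 0.83. The peptide transporter genes Tap1 (1.23 ± 0.070) and Tap2 (1.29 ± 0.076), the immunoproteasome gene Psmb9 (1.38 ± 0.063), the loading factor gene Pdia3 (1.34 ± 0.064) and Cd1d1 (1.91 ± 0.10), which presents lipids to NKT cells, were among the higher ones. The class I heavy chain genes themselves differed little, with H2-K1 at 1162 and 1253 CPM against 1383 and 1413 CPM and not called, but called lower with total UMI scaling (log2 fold change -0.21, edgeR adjusted p = 0.00325), which gave 13 higher and 3 lower class I genes. Class I heavy chain genes are alike in sequence, and reads shared between them may have been split or lost. B2m, the light chain, was the lower one (-0.15 ± 0.044), a call lost with DESeq2. Of 15 class II genes, 9 were higher and 5 lower, with a median of 0.33. H2-Ab1 (0.58 ± 0.033) and March1 (0.99 ± 0.078), a ligase that removes class II from the surface, were higher. H2-Eb2 (-3.58 ± 0.11), H2-DMb2 (-2.33 ± 0.084) and the protease gene Lgmn (-1.47 ± 0.11) were lower.

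Nucleic acid and microbe sensors divided by receptor. Of 26 tested, 8 were higher and 12 lower, beside 25.3% and 25.7% of all genes, with a median of -0.15. Tlr11 and Tlr12, which sense profilin of Toxoplasma, were at 283 and 254 CPM and 43.8 and 42.3 CPM in members against 14.03 and 12.1 CPM and 1.75 and 1.05 CPM in cDC2s. Dnase1l3, a secreted DNase, was higher (1.63 ± 0.065). Tlr7, the receptor for single-stranded RNA, was at 2.39 and 2.07 CPM against 101 and 93.9 CPM (-5.21 ± 0.14), and Tlr5 (-4.98 ± 0.40) and Ddx58 (-4.63 ± 0.13), which encodes RIG-I, were also lower. Of 22 interferon response genes, 4 were higher and 16 lower, with a median of -1.76. Rtp4 was at 1.19 and 2.79 CPM against 66.1 and 54.8 CPM and Ifit3 at 1.10 and 1.96 CPM against 37.1 and 31.4 CPM, whereas Mx1 (1.05 ± 0.14) and Ifi44 (1.44 ± 0.29) were higher.

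Positioning and cytokine genes also went both ways, as did all genes tested, of which 25.3% were higher and 25.7% lower. Of 22 tested chemokine receptor and positioning genes, 10 were higher and 10 lower, with a median of 0.22. P2ry14, a receptor for UDP-glucose, was at 411 and 412 CPM against 5.81 and 6.57 CPM (6.29 ± 0.094), and Cxcr3 at 29.5 and 30.3 CPM against 2.19 and 1.97 CPM (4.06 ± 0.19). Itgae, the integrin alpha E (CD103), was at 74.8 and 109.9 CPM against 1.64 and 7.88 CPM (4.57 ± 0.39). Gpr183 (EBI2), the oxysterol receptor that positions cDC2s in the bridging channels of the spleen, was at 12.05 and 14.1 CPM against 261 and 286 CPM (-4.16 ± 0.11), and Ccr6 at 0.996 and 0.724 CPM against 28.4 and 21.9 CPM. Of 21 chemokine and cytokine genes, 6 were higher and 7 lower, with a median of -0.13. Besides Cxcl9, the chemokine gene Cxcl16 (3.12 ± 0.11), the T cell growth factor gene Il15 (2.26 ± 0.15) and Il12b (2.03 ± 0.41), which encodes the p40 chain of IL-12, were higher. Ccl5, Ccl9, Ccl3 and Ltb were lower by more than 3 on the log2 scale. Of 25 cytokine receptor genes, 4 were higher and 12 lower, with a median of -0.28. Csf1r (-2.91 ± 0.22) was lower and Ifngr1 (1.01 ± 0.054) higher. Of 20 costimulation and checkpoint genes, 8 were higher and 8 lower, with a median of -0.30. Btla (3.12 ± 0.063), an inhibitory receptor, and Cd86 (1.04 ± 0.091) were higher, and the checkpoint ligand genes Pdcd1lg2 (-4.10 ± 0.18) and Cd274 (-2.32 ± 0.083), which encode PD-L2 and PD-L1, were lower.

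Lists that the gates bear on directly depended on them. Of 28 S phase and mitosis genes, 25 were lower in members and 1 higher, but against cDC2s held to the same limits 6 of 27 were lower and 5 higher, with a median of -0.04. Of 14 macrophage markers, 12 were lower and none was higher, against 3 lower and 2 higher of 13 with those limits. Of 10 mature dendritic cell markers, 7 were lower and 1 higher. Marker lists of other cells went both ways. In members the macrophage markers summed to 352 CPM in both samples against 1134 and 1095 CPM in cDC2s, the plasmacytoid dendritic cell markers to 184 and 176 CPM against 413 and 410 CPM, and the NK cell markers to 12.9 and 12.1 CPM against 226 and 236 CPM. T cell markers summed to 8.07 and 12.3 CPM against 34.2 and 51.4 CPM and B cell markers to 251 and 241 CPM against 565 and 224 CPM, so that replicate 2 did not share the direction of replicate 1 for the latter. Monocyte and neutrophil markers summed to 769 and 702 CPM in members against 630 and 689 CPM in cDC2s, higher in members in each sample. Gene by gene, however, 4 of 6 tested were lower in members and 1 higher, with a median log2 fold change of -2.51. Erythroid markers summed to 69.4 and 196 CPM against 49.7 and 158 CPM, also higher in members in each sample. Of 5 tested, 1 was higher and 1 lower. The part of other cells' RNA in the comparison with cDC2s was not tested.

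The next comparison asked how cDC1s without Ccr2 differed from the 245 cDC1s that met every other condition and held a Ccr2 UMI. Ccr2 was at 352 and 314 CPM in the latter and at 46.6 and 49.7 CPM in cDC2s. Members were the deeper group, since cDC1s with Ccr2 had medians of 17056 and 18132 UMIs per cell. Of 11126 genes tested, 365 were called higher in members (3.28%) and 232 lower (2.09%), 89 and 126 of them by more than 2-fold. Both groups came from the same 2 samples, and with the sample as a block the calls were 717 and 489. With libraries scaled by total UMIs, again chosen after seeing the data, they were 231 and 381, the median of all genes moved to -0.11 and the higher share of calls fell from 61.1% to 37.7%.

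The identity genes were not called between these groups. Irf8 was at 1887 and 1959 CPM in members and 1897 and 2065 CPM in cDC1s with Ccr2 (0.06 ± 0.060, adjusted p = 0.65 by edgeR with Benjamini-Hochberg adjustment), and its sign turned with scaling by total UMIs (-0.043). Naaa was at 1266 and 1358 CPM against 1245 and 1263 CPM (0.17 ± 0.062, adjusted p = 0.164) and Tlr3 at 299.5 and 291 CPM against 334 and 334 CPM (-0.07 ± 0.072, adjusted p = 0.651). A p above the threshold does not show that the levels were equal. Of 15 cDC1 lineage factors, 1 was called, Etv6 (0.35 ± 0.082), which lost its call in 5 alternatives (total UMI scaling, at least 2 Ccr2 UMIs, deeper cells, the study's cell filter and cells without proliferation UMIs), and 4 were higher with the sample as a block.

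Part of the cDC1 surface programme was higher without Ccr2. Of 30 tested signature genes, 12 were higher and 3 lower, with a median log2 fold change of 0.31, and total UMI scaling gave the same 12 and 3 in number. Apol7c, an apolipoprotein L family gene linked to leakage of phagosomes, was at 1845 and 1392 CPM in members and 761 and 451 CPM in cDC1s with Ccr2 (1.52 ± 0.20, adjusted p = 0.00204 by edgeR with Benjamini-Hochberg adjustment). Cd8a was at 741 and 791 CPM against 391 and 476 CPM (0.93 ± 0.091) and Cadm1, an adhesion molecule, at 1174 and 1271 CPM against 728 and 694 CPM (0.88 ± 0.069). Itgae was at 74.8 and 109.9 CPM against 39.3 and 47.6 CPM (1.19 ± 0.20) and Cd207, which encodes langerin, at 26.9 and 40.5 CPM against 8.45 and 4.37 CPM (2.49 ± 0.33). At each of these genes both samples of the members lay above both samples of the other group. The 3 lower genes were Sept3 (-0.54 ± 0.12), which lost its call against cells with at least 2 Ccr2 UMIs, under the study's cell filter and among cells without proliferation UMIs, the cytosolic DNA sensor family gene Ifi205 (-0.39 ± 0.068), which has close paralogs, and Cd24a (-0.35 ± 0.077).

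Shares of single cells at equal depth pointed the same way. Each cell was thinned to 5000 UMIs, which left out 26 and 13 members below that depth. Apol7c was then counted in 82.5% and 80.0% of members and in 36% and 33.1% of cDC1s with Ccr2, and in 88.4% and 87.3% against 44.8% and 47.5% before thinning. Cd8a was counted in 88.8% and 88.5% against 54.4% and 58.5%, compared with 6.17% and 6.72% of unthinned cDC2s. Itgae was counted in 20.7% and 31.9% against 8% and 16.1%, and its replicates differed within each group. No test was run on cells.

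**Figure D3:**
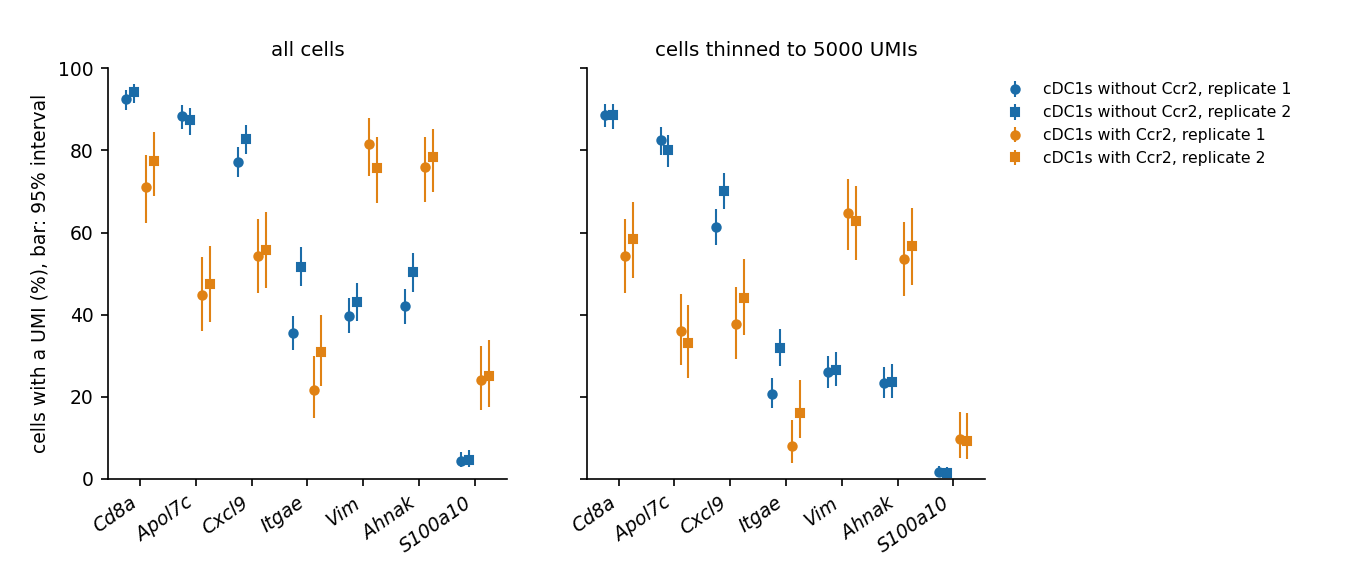
Share of cells with at least 1 UMI of 7 genes (percent, with 95% exact binomial intervals that cover counting error only), per sample, in cDC1s without and with Ccr2, before and after thinning each cell to 5000 UMIs. Cd8a, Apol7c, Cxcl9 and Itgae were found in more cells without Ccr2, and Vim, Ahnak and S100a10 in more cells with Ccr2.

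Many annexin, S100 and cytoskeletal genes were lower without Ccr2. Of 25 tested genes of the early and cytoskeletal list, 14 were lower and 2 higher, with a median of -0.99 beside -0.00 for all genes. The list holds early and cytoskeletal genes named with Ccr2 and was drawn up with earlier results of these data known. Its count therefore describes these cells and is not independent evidence. S100a10, the partner of annexin A2, was at 2.79 and 3.62 CPM in members and 29.98 and 25.3 CPM in cDC1s with Ccr2 (-3.002 ± 0.26), and Anxa2 itself at 25.99 and 34.7 CPM against 159 and 174 CPM (-2.35 ± 0.14). Ahnak, a large scaffold protein, was at 64.1 and 76.1 CPM against 292 and 272 CPM (-1.90 ± 0.11), and Vim, the intermediate filament vimentin, at 135 and 160.4 CPM against 507 and 657 CPM (-1.88 ± 0.13). The groups did not overlap at any of these 4 genes. Vim was counted in 39.7% and 43.0% of members and 81.6% and 75.8% of cDC1s with Ccr2, and in 25.9% and 26.6% against 64.8% and 62.7% after thinning. Emb (-2.03 ± 0.21), an adhesion protein, was lower as well. Ifi203 (-2.17 ± 0.14) and Mndal (-1.66 ± 0.14), neighbouring and overlapping genes of one family whose reads may be split, were also lower. The 2 higher genes of the list were Lgals3 (0.93 ± 0.090), which encodes galectin 3, and S100a11 (0.32 ± 0.060), the latter not called with total UMI scaling or among cells without proliferation UMIs. Of 26 S phase and mitosis genes, 11 were lower and none higher, with a median of -0.79, among them the replication helicase genes Mcm3 (-1.25 ± 0.22), Mcm5 (-1.16 ± 0.22) and Mcm7 (-1.26 ± 0.20). When only cells without a Top2a or Mki67 UMI were compared, Mcm5 (-0.87) and Mcm7 (-0.47) were no longer called.

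**Figure D4:**
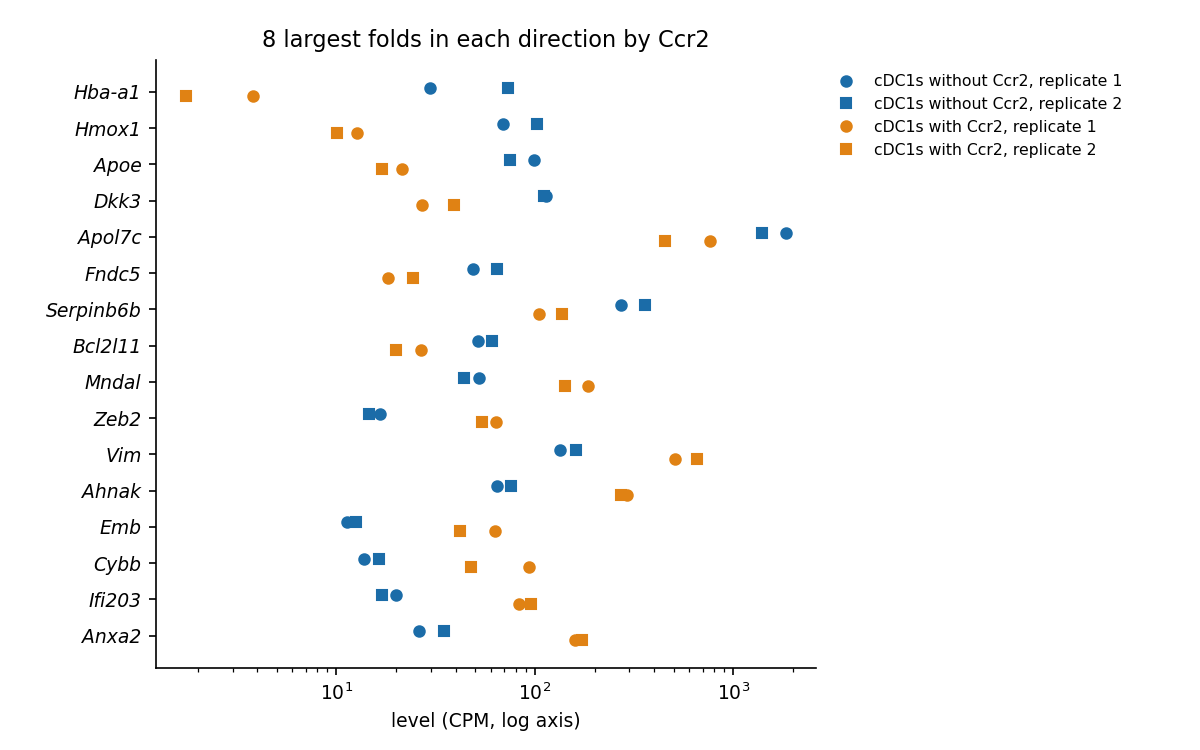
Levels in CPM (log axis) of the 8 genes with the largest fold in each direction between cDC1s without and with Ccr2, one point per sample. Apol7c, Apoe and Dkk3 lay higher without Ccr2 in both samples, and Vim, Ahnak and Anxa2 lay lower.

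Some presentation and costimulation genes were higher without Ccr2, by small folds. Of 15 class II genes, 5 were higher and none lower (median 0.25), and 9 were higher with the sample as a block. Cd74 was at 19455 and 20093 CPM against 17524 and 17652 CPM (0.27 ± 0.038), H2-Eb1 at 8468 and 8949 CPM against 7095 and 7189 CPM (0.39 ± 0.047), and Cd83, which stabilises class II at the surface, at 904 and 1025 CPM against 563 and 785 CPM (0.62 ± 0.13). H2-Aa (0.25 ± 0.046) lost its call with total UMI scaling and among cells without proliferation UMIs. Of 19 class I genes, 5 were higher and none lower (median 0.11), with H2-D1 at 2518 and 2598 CPM against 2075 and 2120.1 CPM (0.39 ± 0.053), and 4 and 1 with total UMI scaling and 6 and 2 with the block. Of 18 costimulation and checkpoint genes, 6 were higher and 2 lower (median 0.21). Cd86 (0.58 ± 0.069), Cd80 (0.74 ± 0.14) and Cd274 (1.17 ± 0.19) were higher, and Lgals9 (-1.04 ± 0.20), a ligand of TIM-3, was lower. Cd274 lost its call under the cell filter of the study, Cd80 among cells without proliferation UMIs, Lgals9 under both, and Cd83 with DESeq2 and with a stricter gate.

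Among secreted and metabolic genes, Dnase1l3 was at 2597 and 2989 CPM against 1306 and 1377 CPM (1.16 ± 0.074). Cxcl9 was at 743 and 982 CPM against 528 and 622 CPM (0.69 ± 0.12) and Cxcl16 at 138 and 135 CPM against 100.1 and 52.8 CPM (0.93 ± 0.20), and both lost their calls with DESeq2 and under the study's cell filter, Cxcl16 also among cells without proliferation UMIs. Of 19 chemokine and cytokine genes, 2 were higher and 1 lower (median 0.16). Actn1, an actin crosslinker, was at 451 and 463 CPM against 183 and 200.4 CPM (1.36 ± 0.080), Entpd1, the ectonucleotidase CD39, at 121 and 142 CPM against 57.9 and 58.5 CPM (1.28 ± 0.12), and the pro-apoptotic gene Bcl2l11 (BIM) at 51.5 and 60.6 CPM against 26.6 and 20.1 CPM (1.36 ± 0.18). These 3 called genes were higher in both samples without overlap, which adds little to their calls. Dkk3 (1.86 ± 0.15), Fndc5 (1.51 ± 0.21) and Serpinb6b (1.49 ± 0.15) completed the larger differences. Of 23 cDC2 signature genes, 6 were lower and 1 higher (median -0.83), with Sirpa at 9.16 and 12.5 CPM against 29.98 and 19.2 CPM (-1.08 ± 0.26), a call lost with a stricter gate, with DESeq2, under the study's cell filter, among cells without proliferation UMIs and without doublets. Cd209a, a gate gene of the cDC2s that was not tested, was at 4.88 and 12.6 CPM in members and 92.1 and 71.6 CPM in cDC1s with Ccr2. Zeb2 was at 16.5 and 14.7 CPM against 63.8 and 54.1 CPM (-1.81 ± 0.16) and Cybb at 13.8 and 16.3 CPM against 93.8 and 47.6 CPM (-2.13 ± 0.27). Of other lists, 2 of 24 cytokine receptors, 3 of 20 positioning genes and 1 of 24 nucleic acid sensors were higher, and 0, 2 and 2 were lower. Of all genes, 3.28% were higher and 2.09% lower.

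Some genes of the marker lists of other cell types differed by Ccr2, as did Apoe. Hmox1, the haem oxygenase gene, was at 68.9 and 103 CPM in members and 12.7 and 10.04 CPM in cDC1s with Ccr2 (3.02 ± 0.26), and Apoe at 98.6 and 74.9 CPM against 21.5 and 17.03 CPM (2.27 ± 0.19). Of 5 tested erythroid markers, 4 were higher, and their summed level was 69.4 and 196 CPM in members, 10.1 and 10.9 CPM in cDC1s with Ccr2 and 49.7 and 158 CPM in cDC2s. None of the 4 was called among cells with at least 10000 UMIs or under the study's cell filter. Hba-a1 was counted in 28 and 30 members (5.34% and 6.68%) and in 5.6% and 3.33% of cDC1s with Ccr2. Of its 296 and 709 UMIs in members, 204 and 355 lay in the cell that held most. Hba-a1 and Hba-a2 are near-identical, and reads may be split between them. Of 12 tested macrophage markers, 3 were higher (Hmox1, Spic and Vcam1) and 2 lower. Spic and Vcam1 lost their calls with total UMI scaling, against cells with at least 2 Ccr2 UMIs, among deeper cells, under the study's cell filter, among cells without proliferation UMIs and with the stricter gate, and Vcam1 also with DESeq2. The summed level of the list was 352 CPM in both samples of the members, 389 and 324 CPM in cDC1s with Ccr2, with 0 and 2 of its 15 genes at 0 in members and 1 and 3 in cDC1s with Ccr2. Of 6 monocyte and neutrophil markers, 4 were lower and none higher, with sums of 769 and 702 CPM in members and 899 and 793 CPM in cDC1s with Ccr2. Sums of the T cell markers were 8.07 and 12.3 CPM in members and 22.0 and 11.4 CPM in cDC1s with Ccr2, those of the NK cell markers 12.9 and 12.1 CPM against 38.4 and 34.5 CPM, and those of the B cell markers 251 and 241 CPM against 230 and 334 CPM. Whether any of these transcripts came from other cells was not tested.

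Members also differed among themselves. Langerin transcripts were present in 104 and 123 members (19.8% and 27.4%), and in 6.40% and 5% of cDC1s with Ccr2, and after thinning in 8.23% and 10.6% against 1.60% and 1.69%. cDC2s held 0 and 1 Cd207 UMIs in all. Members with a Cd207 UMI were deeper, with medians of 23420 and 24214 UMIs against 18182 and 20000 in the others, and the part of depth in the differences was not tested. Of 10542 genes tested between them with Cd207 left out, 8 were called higher (0.0759%) and 8 lower (0.0759%), and 798 had an unadjusted p under 0.05. With the sample as a block the calls were 108 and 77, with a stricter gate 0 and 0, and with total UMI scaling 7 and 15. Neither Irf8, Naaa and Tlr3 nor any of 29 cDC1 signature genes was called, and the median log2 fold change of the latter was 0.16. With the sample as a block, 6 of those 29 and 4 of 15 class II genes were higher, with no filter on low counts again 6 and 4, and with DESeq2 1 and 0. The higher genes included Hmox1 (1.09 ± 0.18), Dnase1l3 (0.45 ± 0.067), Actn1 (0.45 ± 0.062) and the ferritin gene Ftl1 (0.32 ± 0.051). The lower ones included Tmem176a at 4.94 and 4.46 CPM against 28.1 and 23.6 CPM (-2.41 ± 0.26) and Cybb at 2.88 and 3.18 CPM against 17.3 and 22.7 CPM (-2.64 ± 0.32). Both sums of the cells with Cd207 lay below both sums of the cells without it at either gene. Tmem176a and Tmem176b lie head to head and overlap, so their reads may not be separable. Both are cDC2 signature genes, of which 3 of 22 tested were lower, the third being Fcer1g (-1.01 ± 0.15), and none higher, with a median of -0.66. With the sample as a block 8 were lower, and under the stricter gate none of 21 was called and the median was -0.23. The study's cell filter ended the calls of Hmox1, Actn1, Ftl1 and Cybb. Itgae, at 125 and 158 CPM against 58.7 and 86.9 CPM, was not called (1.02 ± 0.17, edgeR adjusted p = 0.0551), and alternatives were split. It was called with the sample as a block (edgeR adjusted p = 2.94e-10) and with total UMI scaling (edgeR adjusted p = 0.0454). Deeper cells, DESeq2, no low count filter and leaving out doublets also gave a call. It was not called under the study's cell filter (edgeR adjusted p = 0.191) or with a stricter gate (edgeR adjusted p = 0.175). Members with at least 2 Cd207 UMIs gave no call either (edgeR adjusted p = 0.0743). Thinning left only 41 and 46 members with a Cd207 UMI, and the split was redone on these counts. Itgae was then counted in 36.6% (95% exact binomial interval 22.1 to 53.1%) against 19.3% (15.7 to 23.2%) of members in replicate 1. In replicate 2 the shares were 47.8% (32.9 to 63.1%) against 30% (25.5 to 34.8%), and the intervals overlapped in both replicates.

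Within the members, cells with an Apol7c UMI and the few without differed in other genes of the Ccr2 comparison. At 5000 UMIs per cell, 411 and 349 members held an Apol7c UMI and 87 and 87 did not. Vim was counted in 22.6% and 22.3% of the former and 41.4% and 43.7% of the latter. Cxcl9 was counted in 64.5% and 75.9% against 47.1% and 47.1%, Itgae in 24.1% and 35.5% against 4.60% and 17.2%, and Cd8a in 91.5% and 90.0% against 75.9% and 82.8%. The cDC2 receptor gene Sirpa was counted in 2.19% and 3.72% against 10.3% and 11.5%. These 5 differences had the direction of the comparison by Ccr2 in both replicates, in cells that held no Ccr2 UMI. In replicate 2, however, the counting intervals overlapped for Cd8a (86.3 to 92.9% against 73.2 to 90.0%). Those of Sirpa overlapped there as well (2.00 to 6.29% against 5.65 to 20.1%). Spic (2.19% and 2.29% against 3.45% and 3.45%) and Vcam1 (6.81% and 7.16% against 6.90% and 8.05%) had the opposite direction, by differences within their counting intervals. Slc40a1 was counted in 2.43% and 1.72% against 3.45% and 9.20%. Members with exactly 1 Xcr1 UMI held Sirpa at 178 and 189 CPM, and the part of such cells in this contrast was not tested. These shares are a description of cells and were given no test.

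Hmox1 was among the genes spread most unevenly over members. Among 3257 genes at 50 CPM or more in both samples, the squared coefficient of variation beyond counting noise had a median of 0.546 and 0.460, and for Hmox1 it was 34.7 and 29.0, the highest when genes were ranked by the lower of their values in both samples. Hmox1 UMIs were found in 22.9% and 27.4% of members, and the top 5% of cells held 84.4% and 80.7% of them. The 13 and 20 members with 10 or more Hmox1 UMIs held Irf8 at 1355 and 1945 CPM and Naaa at 601 and 1552 CPM. The red pulp macrophage factor gene Spic stood at 296 and 30.7 CPM and the iron exporter gene Slc40a1 at 59.8 and 1.92 CPM in these cells. C1qa was at 0 in both samples, and at only 1.47 and 1.22 CPM in members without Hmox1. The selection bears on this gene, since its call against cDC2s was lost when these met the members' limits, C1qb included. Whether the cells with 10 or more Hmox1 UMIs held macrophage RNA was not tested. Ftl1 was at 3687 and 3525 CPM in them and at 1179 and 1103 CPM in members without Hmox1. In replicate 1 these cells thus held more Spic and Slc40a1 and less Naaa than in replicate 2. Fcer1g (6.73 and 6.62) and Vim (5.12 and 4.59) were also among the 15 highest in that ranking.

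The replicates of the members differed at few genes. Of 3485 genes at 50 CPM or more in at least 1 sample, 6 differed by more than 2-fold, and the median absolute log2 difference was 0.0811. Cadps2, a gene of vesicle exocytosis, was at 97.7 CPM in replicate 1 and 2.48 CPM in replicate 2, counted in 379 of 524 and 23 of 449 members. It differed in the same way in cDC1s with Ccr2 (110 and 2.18 CPM), in cDC2s (230 and 2.89 CPM), in T cells (88.3 and 3.38 CPM) and in the other cells (130 and 2.12 CPM). The early response genes Nr4a2 (116 and 257 CPM) and Ccl4 (40.1 and 88.4 CPM) were higher in replicate 2, and the heat shock gene Hspa1b (282 and 132 CPM) in replicate 1. The haemoglobin genes Hba-a1 and Hba-a2 made up the 6.

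**Figure D5:**
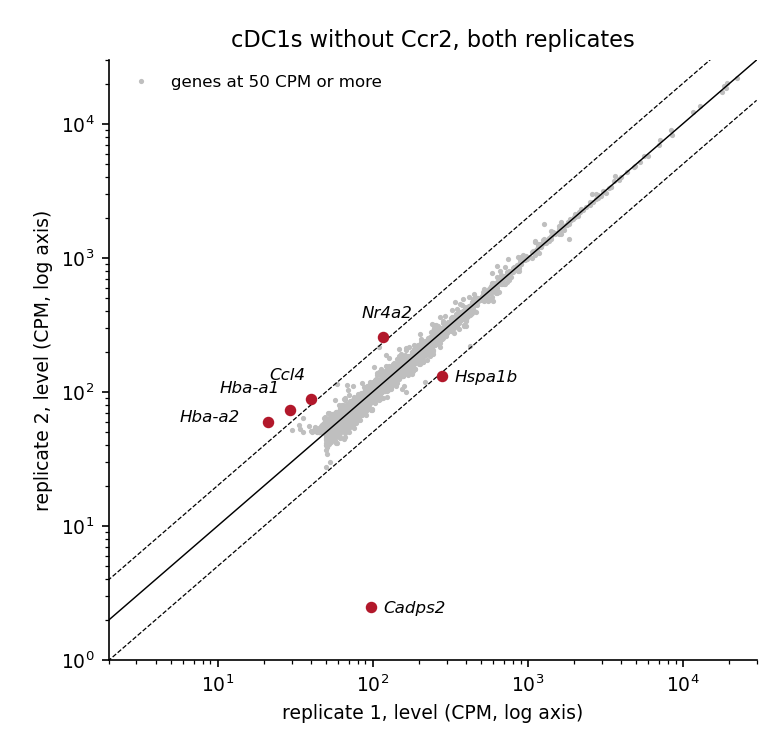
Levels of genes in cDC1s without Ccr2 in replicate 1 against replicate 2, in CPM on log axes. The solid line marks equal levels, the dashed lines a 2-fold difference, and the 6 named genes lay outside them, Cadps2 farthest.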

How the data were processed

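The authors deposited 1 table of UMI counts per cell and gene for each of 2 wild-type samples, made with the BD Rhapsody WTA Analysis Pipeline 1.12.1 on GRCm38 with GENCODE M19 genes, intronic reads counted. Doublets were kept, with an alternative that left out Scrublet calls. Counts were summed per sample and cell group with Python 3.11.15 and tested with edgeR 4.0.16 (R 4.3.3) as 2 against 2 sums, with TMM scaling and filterByExpr, after removing the 10 gate genes. On simulated counts 161, 145 and 157 of 200 genes changed 2-fold were recovered in the comparisons with cDC2s, with cDC1s with Ccr2 and by Cd207. Beside these stood 19, 7 and 10 false calls. Of 200 genes changed 4-fold, 195, 194 and 195 were recovered, beside 9, 23 and 10 false calls. The changed genes were drawn in equal numbers up and down, from genes above a limit of expected count. The simulated sums had no pairing by sample. Against cDC2s 6290 of 12331 genes were called in the data, far more than the simulation changed. Cells are no replicates.

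Sums of both groups came from the same samples. The correlation of same-sample deviations was 0.197 against cDC2s, 0.142 by Ccr2 and 0.0955 by Cd207. Replicate sums differed by 2.53 to 4.31 times counting noise (chi-square per degree of freedom).

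The members and lists were chosen with earlier results of these data known. Named genes were the 10 largest called changes in each direction at 50 CPM or more in 1 group and moving alike in both samples, the 6 largest called genes of each list, and Irf8, Naaa and Tlr3. A further 27 were named after their values were seen, such as Batf3, Cd8a against cDC2s, H2-K1, Lyz2, Rbpj and, by Ccr2, Lgals3 and Sept3. A gene that met the rule is not reported here. Alternatives were the replicate block, DESeq2 1.42.0, no low count filter, deeper cells, the study's cell filter (3 median absolute deviations), other gates and each sample left out, with total UMI scaling added after seeing the data. Intervals and limits cover counting error only.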

Additional observations from a re-analysis of the deposited data

How the results depend on the processing

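Against cDC2s, the counts of calls stayed within 1.5 times under every alternative except scaling by total UMIs, chosen after seeing the data, which gave 2039 higher genes. By Ccr2, the sample as a block gave 717 higher and 489 lower, total UMI scaling 231 and 381, cells without a Top2a or Mki67 UMI 209 and 130, and DESeq2 145 lower. By Cd207, the block gave 108 and 77, no filter on low counts 75 and 95, the study's cell filter 5 and 3, a stricter gate 0 and 0, and total UMI scaling 15 lower. The calls under the block included all those without it by Ccr2 and by Cd207. The share of members was 13.8% under the study's cell filter and 17.7% when every cell was thinned before selection, and 14.6 to 15.8% with either sample alone. The study's cell filter removed 141 of 524 and 158 of 449 members. Those removed had medians of 29168 and 31288 UMIs, against 19215 and 21159 in all members. The causes of these shifts were not tested.

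Of 152 named genes against cDC2s, the direction turned against cDC2s held to the members' limits for C1qa (0.20), Rrm2 (0.67), Birc5 (0.70), Ccna2 (0.66) and Cenpf (0.16), among cells of at least 10000 UMIs for Hba-a2 (-0.31), and without replicate 1 for Ccl22 (-0.11, and 4.04 without replicate 2). H2-K1 turned to -0.076 against cDC2s by Clec10a and Cd209a, -0.040 with those limits and -0.21 with total UMIs, and was at -0.027 to 0.059 with either sample left out. By Ccr2, Irf8 turned to -0.043 with total UMIs. Called genes lost their call in 25 of the gene and setting pairs against cDC2s, 131 by Ccr2 and 33 by Cd207. Depth limits the splits by Ccr2 and by Cd207, where 1 UMI decided a cell's group.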

Other observations

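Beyond Hmox1, Fcer1g and Vim, the genes spread most unevenly over members included Serpina3g, a serine protease inhibitor gene, with UMIs in 39.3% and 47.2% of members and 49.7% and 55.2% of all its UMIs in the top 5% of cells. Dusp5, which encodes a nuclear ERK phosphatase, had UMIs in 28.8% and 39.2% of members, with 60.8% and 47.0% in the top 5% of cells. The metallothionein gene Mt1 had UMIs in 41.6% and 47.7% of members, with 43.3% and 38.0% in the top 5%. Ranked by the lower of their values in both samples, these 3 genes were among the 15 most uneven, and no test was run on cells.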
